A study of Homo sapiens with 6 samples.

Results

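The exon junction complex (EJC) is a set of proteins that the spliceosome leaves on an mRNA just upstream of each joint between exons. The 8 genes described here, RNPS1, ACIN1, SAP18, PNN, RBM8A, MAGOH, MAGOHB and CASC3, encode core and peripheral proteins of this complex. They were taken by symbol from a table of 26391 genes, and each matched 1 row. All 8 passed the filter on low values, as did 16253 genes in all.

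Poly-A selected mRNA of HEK293T cells, a transformed line from human embryonic kidney, was sequenced in 6 libraries. At 50% confluency the cells of 3 samples had been given a mixture of 4 siRNAs directed at LOC550643 (the pool), and 3 a control siRNA meant to silence nothing; lysis followed 48 hours on. The product of LOC550643 is a microprotein that is known to associate with the decapping scaffold EDC4, and the design asks which mRNAs differ in abundance once it is depleted. Since each arm rests on a single reagent, silencing as such and side effects of the reagents cannot be told apart.

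At the core of the complex the RNA helicase EIF4A3 is clamped onto the mRNA by a dimer of MAGOH, or its paralog MAGOHB, with RBM8A. CASC3 joins the clamped core. RNPS1 sits at the periphery. With SAP18 and either ACIN1 or PNN it forms the ASAP or the PSAP complex, which act in splicing. When a ribosome stops upstream of a bound complex, the complex helps to mark the mRNA for nonsense-mediated decay (NMD), and RNPS1 is known as an activator of that step.

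Levels are in CPM, a gene's reads relative to a library total of fixed size, after TMM scaling, which corrects for differences in composition. The inferred number of read pairs on genes ran from 30739321 to 36082404 in 5 libraries and stood at 8604236 in LOC550643 siRNA replicate 3. Control replicate 2 differed most from its fellow replicates. The silenced gene, in the table as LINC01420, averaged 52.9 ± 2.95 CPM in controls and 5.74 ± 0.337 CPM under the pool (SD, n = 3 each; log2 fold change -3.20, limma adjusted p = 1.14e-09). All 8 HEK293T markers looked up had a mean of at least 1 CPM, with a summed level of 1100 to 1205 CPM in controls and 1178 to 1315 CPM under the pool. Most of this sum was VIM, at a mean of 841 CPM over the 6 libraries, so it says little about the other markers. Markers of keratinocytes (3 genes) and of endothelial cells (2 genes) summed to at most 0.118 CPM in any library, those of hepatocytes (2) to at most 0.846 CPM and those of leukocytes (3) to at most 3.09 CPM. Of 6 fibroblast markers 3 had a mean of at least 1 CPM, and the list summed to 72.9 to 81.0 CPM in controls and 69.1 to 74.2 CPM under the pool. In bulk RNA, more cells with a transcript and more transcript per cell cannot be told apart.

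The members differ in how well their reads can be assigned. Sequences are shown for RNPS1, which has a close copy elsewhere in the genome. They are also shown for MAGOH and MAGOHB, whose mRNAs share 0 windows of 75 bases. RNPS1 (NM_006711) lies on the minus strand at chr16:2303117-2317887 (hg19). Its main annotated mRNA has 8 exons and 915 coding bases in the GENCODE annotation of GRCh37. A processed pseudogene, RNPS1P1, lies on chromosome 4, where 913 of those coding bases align and 902 (98.8%) are identical. The longest identical run was 201 bases, longer than the 75-base reads. The 120 coding bases with the most differences, coding bases 617 to 736, are shown because few positions tell the copies apart (chr4:11374215-11374334, plus strand, GRCh37). Capitals mark the 4 differing bases, and both run 5′ to 3′.
RNPS1: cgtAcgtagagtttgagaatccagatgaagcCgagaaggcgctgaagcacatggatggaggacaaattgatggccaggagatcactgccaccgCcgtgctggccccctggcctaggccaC
RNPS1P1: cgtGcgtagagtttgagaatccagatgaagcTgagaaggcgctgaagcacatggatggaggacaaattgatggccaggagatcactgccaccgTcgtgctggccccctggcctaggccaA

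Of all 75-base windows along the RNPS1 mRNA, 442 of 1877 (23.5%) occur in identical form at the RNPS1P1 locus, and 18 windows (0.959%) occur in HPF1 on chromosome 4. For RBM8A, 1590 of 4834 windows (32.9%) occur on chromosome 14 at chr14:60864425-60867137. Its processed pseudogene RBM8B, the pseudogene GNRHR2P1 and the protein-coding gene C14orf39 are annotated there. For ACIN1, SAP18, PNN, MAGOH, MAGOHB and CASC3 the count was 0. How reads from the shared windows were assigned is not given in the sources used here, so the levels of RNPS1 and RBM8A are less certain. Windows were matched singly and exactly, without reads or their mates, so the share does not measure the size of that uncertainty. The RNPS1P1 locus itself was not analysed here.

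MAGOH and MAGOHB encode nearly the same protein from separate genes. MAGOH (NM_002370) lies at chr1:53692564-53704282 and MAGOHB (NM_018048) at chr12:10756364-10766208, both on the minus strand of hg19. Their coding sequences of 438 and 444 bases align over 438 bases, of which 380 (86.8%) are identical. The longest identical run is 38 bases, and their mRNAs share 0 windows of 75 bases, so no read of that length fits both exactly. The last 120 coding bases are shown with the 16 differing bases in capitals.
MAGOH: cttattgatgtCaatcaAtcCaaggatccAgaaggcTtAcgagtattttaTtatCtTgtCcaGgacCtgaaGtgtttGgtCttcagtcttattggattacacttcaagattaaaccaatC
MAGOHB: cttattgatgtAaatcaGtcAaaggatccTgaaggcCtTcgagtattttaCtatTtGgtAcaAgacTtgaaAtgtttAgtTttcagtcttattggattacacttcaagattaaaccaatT

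After LOC550643 siRNA 3 of the 8 members were higher, RNPS1, SAP18 and CASC3, and 0 were lower (limma adjusted p under 0.05). Over all genes tested 35.3% passed, 17.0% as higher and 18.2% as lower. A count of 3 in 8 is close to the share that passed in either direction. All 3 were higher, and the share of higher genes over all genes tested was 17.0%. The count of 0 lower members also stood at an unadjusted limma p under 0.05 and with edgeR, DESeq2 and limma with voom. At 4 members (RNPS1, ACIN1, SAP18, CASC3) the groups did not overlap in CPM, all 4 as higher. Of all genes tested 48.1% did not overlap, 23.2% as higher and 24.9% as lower. The median log2 fold change of the members was 0.17, beside -0.02 over all genes tested and 0.10 over the 2512 genes with a control mean of at least 100 CPM. RNPS1 had a log2 fold change of 0.80, and the next highest, SAP18, one of 0.30.

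**Figure D1:**
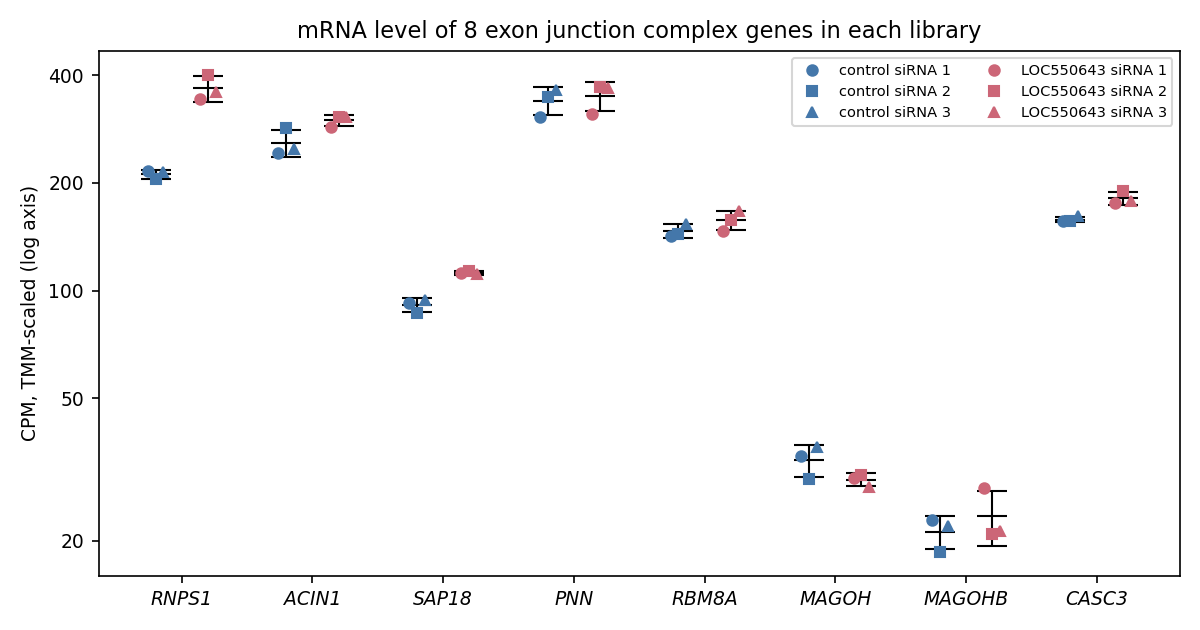
CPM of each of the 8 genes (log axis) in the 3 control (blue) and 3 LOC550643 siRNA (red) libraries; symbols give the replicate and bars the mean ± SD. RNPS1 stands at 204.6 to 215.4 CPM in controls and 342.9 to 401.6 CPM under the pool, a wider gap than at any other of the genes shown.

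RNPS1 rose in every LOC550643 siRNA library. Its level was 215.4, 204.6 and 214.6 CPM in control replicates 1 to 3 and 342.9, 401.6 and 359.1 CPM in LOC550643 siRNA replicates 1 to 3. The groups were far apart, and the spread was wider with the pool (8.25% of the mean) than with the control siRNA (2.86%). The means were 211.5 ± 6.05 and 367.9 ± 30.3 CPM (SD, n = 3 each), a fold of 1.74 with a 95% interval of 1.54 to 1.95 (log2 0.80, SE 0.079, limma adjusted p = 1.71e-05). The authors' deposited table lists a log2 fold change of 0.80 for it as well, with an adjusted p of 6.17e-16. Among all genes tested, RNPS1 ranked 242nd by log2 fold change, within the top 1.49%. Of the 2512 genes with a control mean of at least 100 CPM, 33 had a log2 fold change at or above its own, itself included. The pseudogene window share of 23.5% stands beside this result, and its part in it was not tested.

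The partners of RNPS1 in the ASAP and PSAP complexes differed less between the groups. SAP18 (NM_005870, chr13:21714653-21723224, plus strand), also found with the SIN3 histone deacetylase complex, stood at 92.5, 86.7 and 94.3 CPM in control libraries. With the pool it stood at 111.9, 113.6 and 111.0 CPM, so the groups did not overlap. It rose by a fold of 1.23 (95% interval 1.11 to 1.37; log2 0.30, SE 0.069, limma adjusted p = 0.00519), and its adjusted p in the authors' deposited table is 0.00645.

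ACIN1 (NM_014977, chr14:23527774-23564823, minus strand), the scaffold of the ASAP complex, stood at 242.6, 284.1 and 248.0 CPM in control libraries. It stood at 287.3, 305.5 and 306.5 CPM under the pool. The groups did not overlap, although control replicate 2 lay close to the lowest library of the pool. The difference did not pass (log2 0.22, 95% interval 0.04 to 0.39, limma adjusted p = 0.0523). It did pass without control replicate 2 (log2 0.27, adjusted p = 0.00866) and with DESeq2 (adjusted p = 0.0271). The authors' deposited table lists an adjusted p of 0.0937. ACIN1 overlaps C14orf119 on the opposite strand by 141 bases.

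PNN (NM_002687, chr14:39644387-39652422, plus strand), the splicing regulator that takes the place of ACIN1 in the PSAP complex, stood at 305.6, 348.7 and 364.3 CPM in control libraries and 311.7, 371.0 and 367.9 CPM with the pool. The groups overlapped. Its log2 fold change was 0.04 with a 95% interval of -0.16 to 0.25 (limma adjusted p = 0.744), so a rise as large as that of RNPS1 lies outside the interval.

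**Figure D2:**
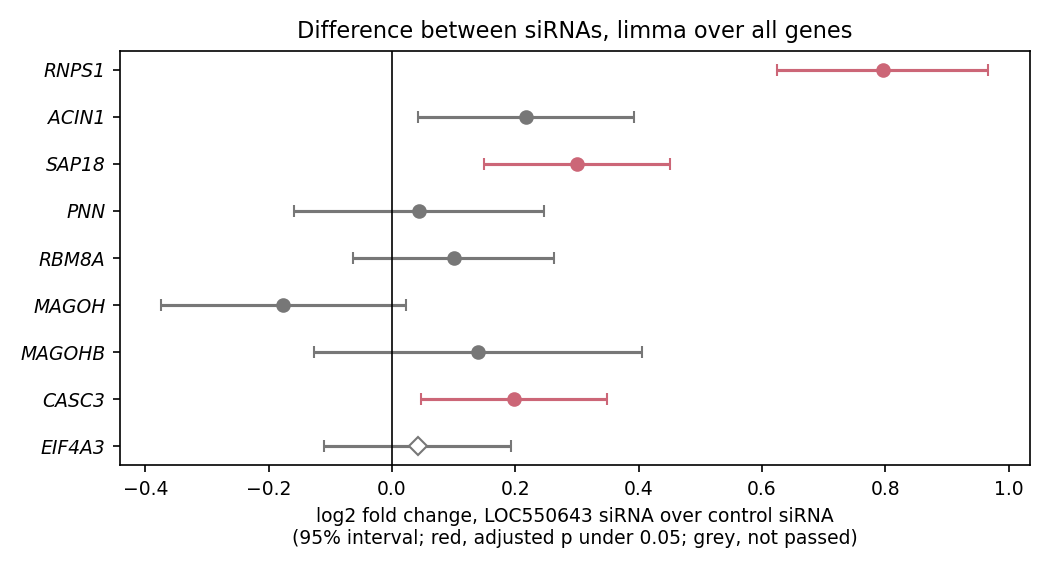
Log2 fold change of each gene, LOC550643 siRNA over control siRNA, with its 95% interval from limma (n = 3 each); red marks an adjusted p under 0.05 and the open diamond marks EIF4A3, the helicase of the core. RNPS1 lies at 0.80, and the highest upper bound among the other 8 intervals is that of SAP18 at 0.45.

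Of the core genes 1 passed. CASC3 (NM_007359, chr17:38296507-38328431, plus strand), which binds EIF4A3 and helps to activate NMD, stood at 156.5, 156.2 and 161.2 CPM in control libraries. It stood at 175.5, 190.0 and 178.3 CPM under the pool, with no overlap. Its rise was small (log2 0.20, 95% interval 0.05 to 0.35, limma adjusted p = 0.0426). With any 1 of the 6 libraries left out it no longer passed, with adjusted p from 0.0593 to 0.146, and the authors' deposited table lists 0.0955.

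RBM8A (NM_005105, chr1:145507557-145513535, plus strand), the partner of MAGOH, stood at 142.2, 143.6 and 154.0 CPM in control libraries. It stood at 147.2, 157.4 and 167.2 CPM with the pool, and the groups overlapped. Its log2 fold change of 0.10 did not pass (95% interval -0.06 to 0.26, limma adjusted p = 0.323), and was 0.0553 without LOC550643 siRNA replicate 3. Its row overlaps GNRHR2 on the opposite strand by 3784 bases, and lies within the long spans listed for NBPF10 and NBPF20 on the same strand. GNRHR2 stood at 11.9 CPM in controls and 12.9 CPM under the pool.

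MAGOH was the only member with a log2 fold change below 0. It stood at 34.6, 29.7 and 36.4 CPM in control libraries and 30.0, 30.6 and 28.3 CPM under the pool. Control replicate 2 lay among the LOC550643 siRNA libraries, so the groups overlapped. The difference did not pass (log2 -0.18, 95% interval -0.37 to 0.02, limma adjusted p = 0.153). Without control replicate 2 it passed at -0.28 (adjusted p = 0.0198), and with library totals alone at -0.25 (adjusted p = 0.0405).

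MAGOHB stood at 22.8, 18.6 and 21.9 CPM in control libraries and 28.1, 20.8 and 21.3 CPM under the pool. LOC550643 siRNA replicate 1 was above the rest, and the others overlapped. The log2 fold change of 0.14 did not pass (95% interval -0.13 to 0.41, limma adjusted p = 0.404). It was 0.00046 without LOC550643 siRNA replicate 1. MAGOHB had the fewest reads of the members, from 180 read pairs in LOC550643 siRNA replicate 3 to 969 in replicate 1.

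Per kilobase of the exon length in the table, the control levels ran in the order RNPS1 (100.9 ± 2.89 CPM per kb), PNN (94.5 ± 8.45), ACIN1 (52.5 ± 4.58), MAGOH (44.8 ± 4.63), SAP18 (39.7 ± 1.74), CASC3 (37.9 ± 0.673), RBM8A (29.6 ± 1.30) and MAGOHB (6.98 ± 0.738; SD, n = 3 each). The control libraries overlapped between RNPS1 and PNN, between MAGOH and SAP18, and between SAP18 and CASC3. With the pool RNPS1 stood at 175.4 ± 14.5 CPM per kb, apart from PNN at 97.4 ± 9.29. MAGOH, above SAP18 and CASC3 in the control order, then stood below both at a mean of 39.5 CPM per kb. MAGOHB made up 13.0 to 14.1% of the summed MAGOH and MAGOHB level per kb in control libraries. In LOC550643 siRNA replicates 1 to 3 it made up 18.8, 14.4 and 15.7%. This share depends on the listed exon lengths, 3027 bases for MAGOHB and 749 for MAGOH, and the transcript lengths in these cells were not measured. The summed level of the pair was 54.7 ± 5.55 CPM and 53.0 ± 4.50 CPM (SD, n = 3 each).

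Ratios between members within a library do not depend on how libraries are scaled. The ratio of RNPS1 to ACIN1 in CPM was 0.888, 0.720 and 0.865 in control libraries and 1.19, 1.31 and 1.17 in LOC550643 siRNA libraries. The ratio of RNPS1 to PNN was 0.705, 0.587 and 0.589 in control libraries and 1.10, 1.08 and 0.976 with the pool. RNPS1 reads were thus the fewer of each pair in every control library. Against all 7 other members the ratio was higher in every LOC550643 siRNA library than in every control library. The log2 difference ran from 0.50 against SAP18 to 0.97 against MAGOH. The ratio of MAGOHB to MAGOH was 0.661, 0.627 and 0.603 in control and 0.938, 0.682 and 0.752 in LOC550643 siRNA libraries, a log2 difference of 0.32 with no overlap. Without LOC550643 siRNA replicate 1 it was 0.19. For each of these 8 ratios the two-sided exact permutation p was 0.1 (adjusted p = 0.1 over the 8), the smallest that 3 libraries against 3 allow, so none could pass.

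**Figure D3:**
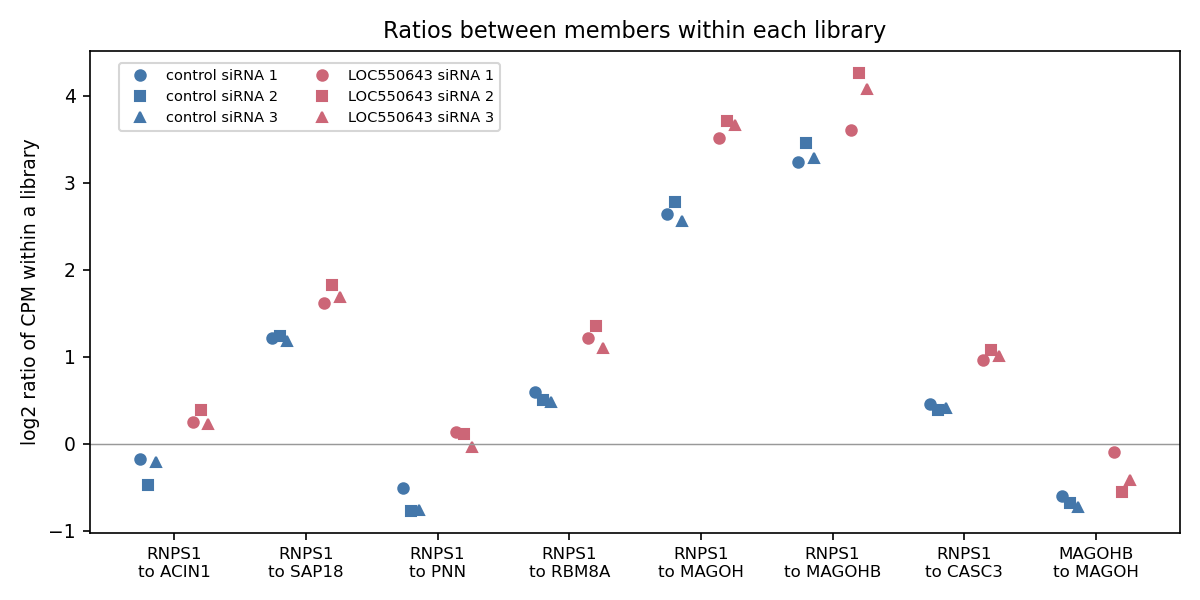
Log2 ratio of CPM within each library for RNPS1 against the 7 other members and for MAGOHB against MAGOH; blue, control siRNA and red, LOC550643 siRNA, with symbols for the replicate. In each of the 8 ratios the 3 red points lie above the 3 blue points, by the least margin for MAGOHB to MAGOH (log2 difference of means 0.32).

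The proteins that complete, load and recycle the core were measured beside the members. For this and each later list, the shares over all genes tested were 17.0% higher and 18.2% lower. Of 5 genes, EIF4A3, CWC22, PYM1 (listed as WIBG), IPO13 and CWC27, 0 passed in either direction with limma (2 were higher at an unadjusted p under 0.05; edgeR, DESeq2 and limma with voom also called 0). EIF4A3, the helicase, stood at 128.2, 121.6 and 131.8 CPM in controls and 127.3, 134.1 and 131.3 CPM under the pool, with overlap (log2 0.04, 95% interval -0.11 to 0.19, limma adjusted p = 0.677). CWC22, which brings EIF4A3 to the spliceosome, was at log2 0.07. PYM1, which takes the complex apart on ribosomes, was at 0.20 (limma adjusted p = 0.109). IPO13, the importin that returns the MAGOH and RBM8A dimer to the nucleus, was at 0.17 (0.112), and CWC27, a spliceosomal cyclophilin, at 0.27 (0.0765). The call of CWC27 came with control replicate 3 or LOC550643 siRNA replicate 1 left out (adjusted p = 0.0242 and 0.0389), and that of IPO13 with trends in GC content and length removed (0.0394).

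NMD factors moved in both directions. Of 10, 3 were higher, 2 lower and 5 did not pass (median log2 fold change 0.02). UPF3B, which binds the EJC directly, stood at 124.2, 118.0 and 150.8 CPM in controls and 194.0, 228.5 and 211.4 CPM under the pool (log2 0.69, limma adjusted p = 0.000197). UPF1, the helicase of the pathway, rose by log2 0.40 (limma adjusted p = 0.00105), and UPF2, which bridges UPF1 and UPF3B, by 0.33 (0.0139). The call of UPF2 was lost without control replicate 1 or LOC550643 siRNA replicates 2 or 3 (adjusted p = 0.0777, 0.0511 and 0.064). Among the lower genes was SMG9, a subunit of the kinase complex that phosphorylates UPF1, named after its value was seen (log2 -0.25, limma adjusted p = 0.0448). The count of lower genes was 1 without control replicate 1 or 3, or without LOC550643 siRNA replicate 1 or 3. It was also 1 with limma with voom, without the filter on low values, and in limma with the replicate number as a block.

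Of 15 genes of mRNA export, a step that the EJC and the ASAP proteins are linked to, 6 were higher and 1 lower (median 0.16). ALYREF, the export adaptor, stood at 69.0, 62.8 and 70.5 CPM in controls and 97.8, 105.2 and 106.2 CPM under the pool (log2 0.61, limma adjusted p = 7.84e-05). Of the THO complex subunits, THOC7 rose by 0.67 and THOC3 by 0.39, and THOC6 fell by 0.44 on the log2 scale (limma adjusted p = 0.000677, 0.00355 and 0.00288). THOC6 overlaps HCFC1R1, and THOC7 overlaps THOC7-AS1 and C3orf49, on the opposite strand.

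Among 21 SR proteins, related splicing factors and their kinases, 3 were higher and 3 lower (median 0.04). SRPK1, a kinase of SR proteins, rose by log2 0.40 and SRSF4, an SR protein, by 0.32 (limma adjusted p = 0.00163 and 0.00614). CLK1, a nuclear SR kinase, fell by 0.42 on the log2 scale (limma adjusted p = 0.000472) and its relative CLK3 rose by 0.31 (0.0104). The call of CLK3 was lost without LOC550643 siRNA replicate 2 (0.0544). The other lower genes, SRSF5 (-0.26) and SRSF11 (-0.30), were named after their values were seen, and without LOC550643 siRNA replicate 1 the count of lower genes was 1.

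Of 13 partners of SAP18 in the SIN3 histone deacetylase complex, 7 were higher and 0 lower with limma (median 0.21). Over all genes tested 17.0% were higher and 18.2% lower. Of genes with a control mean of at least 100 CPM, a level that some of the 13 reach, 44.9% passed in either direction. The median log2 fold change of those genes was 0.10. The count of 0 lower also stood at an unadjusted limma p under 0.05 and with edgeR, DESeq2 and limma with voom. HDAC1, the deacetylase, stood at 239.3, 224.7 and 222.1 CPM in controls and 359.4, 404.8 and 364.8 CPM under the pool (log2 0.72, limma adjusted p = 2.92e-05). RBBP7, a histone chaperone, rose by 0.61, SAP30, a subunit that bridges to SIN3, by 0.50, and SIN3B, a scaffold, by 0.39 (limma adjusted p = 0.000277, 0.00196 and 0.00141).

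Of 17 genes with transcripts known as NMD-sensitive, 4 were higher, 2 lower and 11 did not pass (median 0.15, and 0.0916 without control replicate 2). Reads were counted over all exons of a gene, so NMD-sensitive transcripts were not told apart from other transcripts of the same gene. GADD45A and GADD45B, stress-induced growth regulators, rose by log2 0.46 and 0.56 (limma adjusted p = 0.000378 and 0.00438). CARS, a tRNA synthetase, rose by 0.35 and HNRNPL, a splicing regulator, by 0.32 (0.00616 and 0.00762). The lower genes, SNHG1 (-0.34) and PTBP2 (-0.28), were named after their values were seen. Leaving out control replicate 3 brought their count to 0, as did leaving out LOC550643 siRNA replicate 2. It was 1 when control replicate 1 was left out, and also 1 when LOC550643 siRNA replicate 3 was. SRSF3 stands in both this list and that of SR proteins, and did not pass. The median over all genes tested was -0.02, and 35.3% of them passed, beside 0 to 53.8% in the 6 lists. Of the 2512 genes with a control mean of at least 100 CPM, 44.9% passed.

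**Figure D4:**
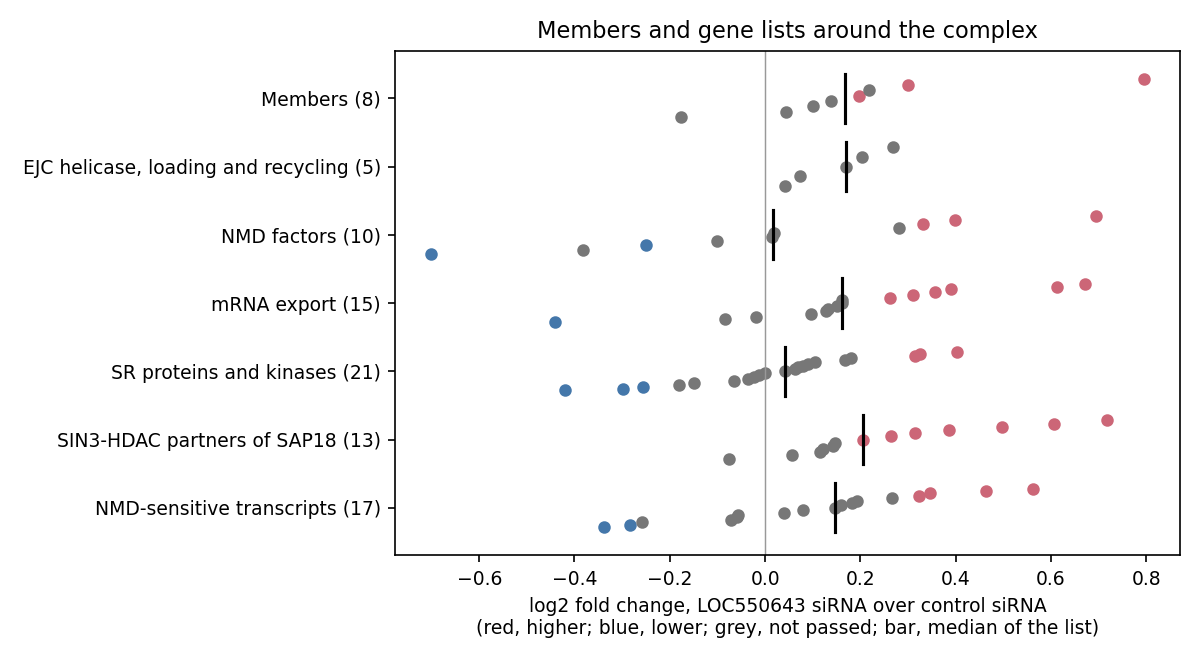
Log2 fold change, LOC550643 siRNA over control siRNA, of the 8 members and of the genes of 6 lists (number of genes in brackets); red, higher and blue, lower at a limma adjusted p under 0.05, grey, not passed, and the bar is the median of each row. RNPS1 at 0.80 lies to the right of every other gene shown, and HDAC1 at 0.72 is next.

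The genes whose profile over the 6 libraries was most like that of RNPS1 were sought among 11238 genes with a mean of at least 10 CPM. Likeness was the root mean square difference between the log2 profiles, each centred on its own mean, and is a description with no test. Among the closest were SF3B2, a subunit of the SF3b splicing complex (0.026), GLE1, an mRNA export factor at the nuclear pore (0.026), ZNF184, a zinc finger protein (0.026), and EIF3B, a translation initiation factor (0.032). SF3B2 stood at 364.8, 356.9 and 369.2 CPM in controls and 576.9, 677.6 and 592.1 CPM under the pool. As with RNPS1, LOC550643 siRNA replicate 2 was the highest. Closest to MAGOH were TYMS, thymidylate synthase (0.016), SFXN4, a mitochondrial sideroflexin (0.020), QDPR, a pteridine reductase (0.023), and HACL1 and ASAH1, enzymes of fatty acid and ceramide breakdown (both 0.025). All 5 had, as MAGOH did, their lowest control value in replicate 2, and none passed the test. Since the genes near RNPS1 and MAGOH were picked for likeness over these same libraries, such shared traits are no separate evidence. TYMS overlaps ENOSF1 and TYMSOS, and HACL1 overlaps BTD, on the opposite strand, so their levels are less certain. GLE1 lies within the span listed for MIR1268A, which averaged only 0.053 CPM in controls and 0.095 CPM under the pool.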

How the data were processed

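Per the labels' protocols, poly-A selected dUTP libraries were read as paired 75-base ends, demultiplexed with CASAVA 1.8.2, aligned to hg19 with STAR 2.4.0k and tested with edgeR 3.6.8. Per the file headers, HOMER counted reads over exons of each gene with no strand option, so genes overlapping on opposite strands are uncertain. The deposited values per library are a signal: the authors divided gene counts by a factor per library, which leaves near-equal totals. Within a library every value is a whole number of steps (100% within 0.1 step). A step was read as 1 read end, since 59.2% to 61.0% of low values are even multiples. The authors' log2 fold changes and p-values are deposited beside them and used only for comparison.

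The test was limma 3.58.1 in R 4.3.3 (trend option, both sides), applied to TMM-scaled values (edgeR 4.0.16) as log2(value + pseudocount), the pseudocount being 1 deposited unit or 0.034 CPM. The pseudocount shrinks fold changes of weakly expressed genes. filterByExpr, at 10 read pairs, kept 16253 genes, over which Benjamini-Hochberg adjustment ran. Whether replicates were separate cultures is not labelled, so p-values reflect spread among these samples, perhaps technical. All replicate pairs differed beyond counting noise (chi-square over degrees of freedom, 5.47 to 41.4). DESeq2 1.42.0 was an alternative on recovered counts.

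The members and lists were chosen with earlier results of these data known. Named are all members, the target, EIF4A3, up to 4 genes with the smallest p of each list, and the 5 genes nearest to RNPS1 and to MAGOH. Some genes that this rule names are not reported here. Windows of 75 bases were matched exactly, on both strands, to GRCh37, the build of hg19, in Python 3.11.15.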

Additional observations from a re-analysis of the deposited data

How the results depend on the processing

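The members' fold changes and the counts of calls were recomputed under 23 other settings, the list medians under 22 and the ratios under 7. The order per kb, the MAGOHB share, the counts without overlap and the likeness to RNPS1 and MAGOH were not recomputed. Of the settings, edgeR on read pairs and the removal of GC and length trends (values for 90.3% of tested genes) were chosen after seeing the data. RNPS1 and SAP18 passed as higher in all 23, with log2 fold changes of 0.72 to 0.84 and 0.23 to 0.32. MAGOHB and RBM8A passed in none. The number of members higher ran from 2 to 4. ACIN1 passed with median-of-ratios scaling (0.226), upper-quartile scaling (0.219), a filter at 1 CPM (0.218), limma with voom (0.219), DESeq2 (0.222) and GC and length trends removed (0.218). CASC3 was lost with library totals alone (0.124), without a filter (0.198, adjusted p = 0.0535), with the replicate number as a block (0.198, adjusted p = 0.0706) and at an adjusted p of 0.01 (0.198); the block changed no other call among the members, and with edgeR and the block CASC3 passed (adjusted p = 0.0457). Replicate numbers did not pair the libraries (correlations of same-numbered deviations 0.06, -0.28 and -0.12). With library totals MAGOH passed as lower (-0.25), making 1 member lower, and PNN turned to -0.030. With 1 library left out, ACIN1 ran from 0.17 to 0.27, CASC3 from 0.16 to 0.22, MAGOH from -0.28 to -0.12, PNN from -0.036 (without control replicate 1) to 0.126, RBM8A from 0.0553 (without LOC550643 siRNA replicate 3) to 0.147, the count of lower members from 0 to 1, and the medians of the NMD factors and SR lists from -0.034 to 0.0843 (without control replicates 3 and 2) and 0.0157 to 0.0824 (without control replicates 1 and 3). The median of the genes with NMD-sensitive transcripts ran from 0.0916 (without control replicate 2) to 0.166. With library totals the medians of the 6 lists, in the order of the text, were 0.10, -0.0572, 0.0864, -0.0313, 0.13 and 0.0725, and with GC and length trends removed that of the SIN3 list was 0.25. At an adjusted p of 0.01, 1722 genes were higher and 1774 lower over all genes. The share of higher genes among all calls was 48.3%, and 34.3% with library totals. Of 276 list counts, 256 stayed within 1.5 times, and the other 20 moved by at most 2 genes. All 56 recomputed ratio differences stayed within 1 SD, although that of MAGOHB to MAGOH ran from 0.186 to 0.415. MAGOHB had the fewest reads of the members, at 180 read pairs in the shallowest library. The cause of these changes was not tested.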
